A study of Mus musculus with 8 samples.

Results

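The Slc30a genes encode the ZnT family of zinc transporters, and their mRNA was described here in Paneth cells sorted from the mouse small intestine. The members were taken by name from the deposited gene counts, as Slc30a1 to Slc30a10, and all 10 were present among the 55414 genes of the table. RNA-seq libraries came from 8 C57BL/6J mice, of which 4 were fed standard chow (control) and 4 were fed zinc-depleted chow (zinc deficient) ad libitum for 7 weeks. Each library is 1 labelled biological replicate of Paneth cells collected by fluorescence-activated sorting. The sources used here give no age, no sex of each animal and no tissue zinc. No control fed the zinc-depleted chow with zinc added back was described, so zinc and the other contents of the 2 chows cannot be told apart.

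Most ZnT proteins move zinc out of the cytosol, either across the plasma membrane or into organelles, and the ZIP proteins of the Slc39a family move it the opposite way. Paneth cells sit at the base of the intestinal crypts, store zinc in their secretory granules and release antimicrobial proteins, the alpha-defensins among them. ZnT2, encoded by Slc30a2, is the transporter known for loading zinc into the granules of Paneth and other secretory cells. ZnT5, ZnT6 and ZnT7 supply zinc to enzymes in the early secretory pathway, and ZnT1 exports it across the plasma membrane.

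The libraries held 8557690 to 12648005 counts. All 9 Paneth markers were counted in every mouse and summed to 477672 to 583989 CPM (counts scaled to the same total in every library) in control mice and to 544117 to 633356 CPM in zinc deficient mice. Control replicate 1 stood apart, with a scaling factor of 1.57 by the trimmed mean of M-values (TMM, which corrects for a few genes taking much of a library) against 0.719 to 1.16 in the other 7 libraries. The 4 stem cell markers summed to 1279 to 2011 CPM in control and 461 to 1034 CPM in zinc deficient mice. The 9 enteroendocrine markers summed to 33.2 to 50.3 and 13.7 to 29.2 CPM. Neither list overlapped between the diets on this scale of total counts. Under TMM the enteroendocrine values would overlap, with control replicate 1 (39.1 CPM, factor 1.57) falling below zinc deficient replicate 2 (29.2 CPM, factor 0.719). The stem cell values would stay apart under TMM. Their lowest control, replicate 1 (2011 CPM, factor 1.57), would lie above the highest zinc deficient value, replicate 1 (1034 CPM, factor 0.935). Goblet markers (2492 to 3109 and 2019 to 4372 CPM), enterocyte markers (27.7 to 142 and 16.1 to 144 CPM) and tuft markers (42.6 to 71.2 and 11.8 to 309 CPM) overlapped. Immune markers reached at most 3.31 CPM with Cd3e at 0, and stromal markers at most 0.169 CPM with Col1a1, Col1a2, Col3a1 and Dcn at 0. The part of these other cell types in the values below was not tested, and in bulk RNA fewer cells of a type cannot be told from less RNA per cell.

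Slc30a2 was by far the most abundant ZnT mRNA of these cells. Per length, as TPM (counts over the length of all exons of a gene, scaled to the same total in every library), it averaged 21.4 ± 7.19 TPM (SD, n = 8 mice), which placed it above 96.3% of the 10911 genes that passed the expression filter. In TPM it was at 37.6, 23.1, 19.0 and 15.5 in control replicates 1 to 4, and at 18.3, 14.7, 20.4 and 22.6 in zinc deficient replicates 1 to 4. Its highest value was that of control replicate 1, and the values of the diets overlapped. Slc30a2 made up 57.2 ± 3.95% (SD, n = 8) of the summed TPM of the 10 ZnT genes, with a range of 52.5 to 62.6%. The share was 56.3 ± 4.04% (SD, n = 4) in control and 58.1 ± 4.22% (SD, n = 4) in zinc deficient mice. Dividing by the longest protein-coding transcript in place of the summed exons gave a share of 48.9 ± 3.78%.

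**Figure D1:**
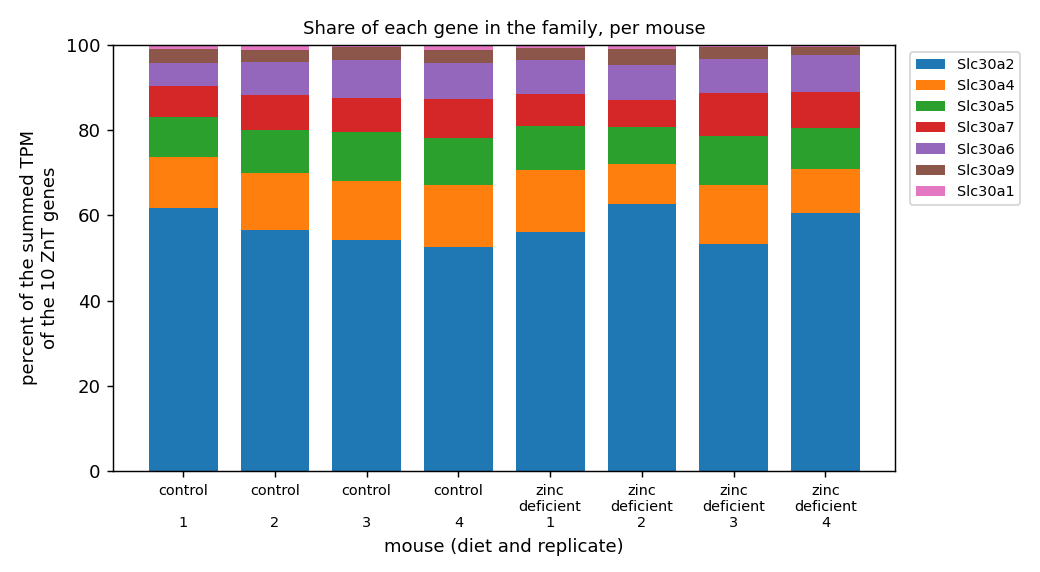
Stacked bars give each ZnT gene as a percent of the summed TPM of the 10 ZnT genes (y axis) in each of the 8 mice (x axis, diet and replicate). Slc30a2 takes between 52.5 and 62.6% of every bar, and Slc30a1 averages 0.901%.

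Below Slc30a2 came 4 genes within a narrow range of TPM. Slc30a4 averaged 4.74 ± 1.41 TPM, Slc30a5 3.83 ± 1.07 TPM, Slc30a7 3.01 ± 0.890 TPM and Slc30a6 2.87 ± 0.488 TPM (SD, n = 8 each). Slc30a9 followed with 1.07 ± 0.381 TPM and Slc30a1 with 0.332 ± 0.148 TPM (SD, n = 8), the latter above only 12.56% of the genes tested. Slc30a3, Slc30a8 and Slc30a10 were at or near 0.

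Neighbours in this order were compared within each mouse on the log2(TPM + 0.1) scale with an exact two-sided sign-flip permutation test, adjusted over 6 pairs by the Benjamini-Hochberg method. The order came from these same mice, so each p describes how repeatable a step was among them. It cannot show an error in gene length, which all mice share. Slc30a2 exceeded Slc30a4 by 2.16 ± 0.32 (SD of the log2 difference, n = 8), or 4.46-fold, in 8 of 8 mice (exact adjusted p = 0.00937). Slc30a6 exceeded Slc30a9 by 1.38 ± 0.36 and Slc30a9 exceeded Slc30a1 by 1.45 ± 0.34, again in 8 of 8 mice (exact adjusted p = 0.00937 for each). The unadjusted p of 0.00781 behind these values is the smallest that 8 mice can give. Slc30a7 and Slc30a6 did not differ beyond their spread, with a log2 difference of 0.03 ± 0.25 and Slc30a7 higher in 4 of 8 mice (exact adjusted p = 0.781).

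The order of the middle genes, and the size of the lower steps, depended on the length used. With summed exons, Slc30a4 lay above Slc30a5 by 0.29 ± 0.13 in 8 of 8 mice, and Slc30a5 above Slc30a7 by 0.35 ± 0.13 in 8 of 8 mice (exact adjusted p = 0.00937 for each). With the longest transcript Slc30a4 lay below Slc30a5 in every mouse, by -0.67 on the log2 scale, and Slc30a7 lay above Slc30a6 by 0.24 in 7 of 8 mice (exact adjusted p = 0.0391). Slc30a5 has 11281 bases of summed exons and 5595 bases in its longest coding transcript, whereas for Slc30a4 these are 5893 and 5744. Slc30a6 exceeded Slc30a9 by 0.53 in 7 of 8 mice with the longest transcript (exact adjusted p = 0.0187), and Slc30a9 exceeded Slc30a1 by 2.69 in 8 of 8 (exact adjusted p = 0.0117). Slc30a2 at the top, and Slc30a9 above Slc30a1 at the bottom of the tested genes, held with both lengths.

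**Figure D2:**
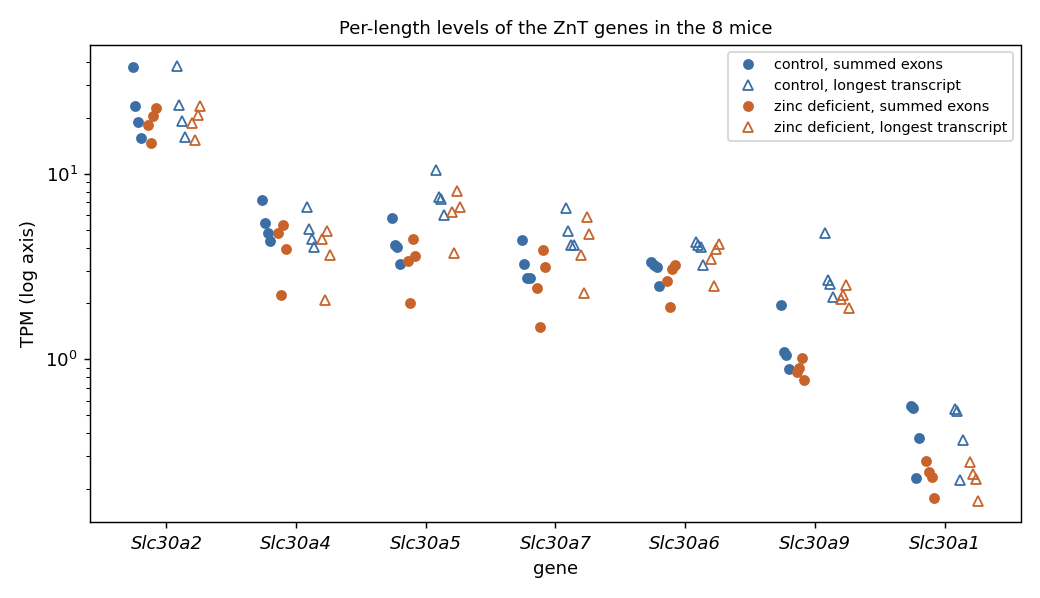
TPM on a log axis for the 7 ZnT genes that passed the expression filter, with 1 point per mouse (blue, control; orange, zinc deficient), computed from the summed exons (circles) and from the longest coding transcript (triangles). Slc30a2 lies above all others with both lengths, while Slc30a5, Slc30a6, Slc30a7 and Slc30a9 sit higher with the longest transcript than with summed exons.

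No ZnT gene was called different between the diets. Of the 10 members, 7 passed the expression filter and entered the edgeR fit of all 10911 genes, and 0 of these 7 had a Benjamini-Hochberg adjusted p under 0.05, where 0.403% of all genes tested did (44 genes, of which 16, or 0.147%, were higher and 28, or 0.257%, lower in zinc deficient mice). At an unadjusted p under 0.05 the count was also 0 of 7, against 10.5% of all genes (6.04% on the lower side), and DESeq2 called 0 of 7 as well. The 4 control and 4 zinc deficient values overlapped for each of the 7 genes, against 6.09% of all genes whose values did not overlap. The log2 fold change (zinc deficient minus control) was below 0 for 2 and above 0 for 5 of the 7, with a median of 0.06 and a median absolute size of 0.143, beside -0.005 and 0.184 over all genes tested, 50.7% of which were below 0. For 6 of the 7, all but Slc30a1, the 95% interval of the fold lay between 0.785 and 1.57 with these 4 mice per diet and this scaling. Each interval is for 1 gene alone, so together they set no joint bound. They also move with single mice, as Slc30a6 went to a log2 fold change of 0.40 without control replicate 3.

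**Figure D3:**
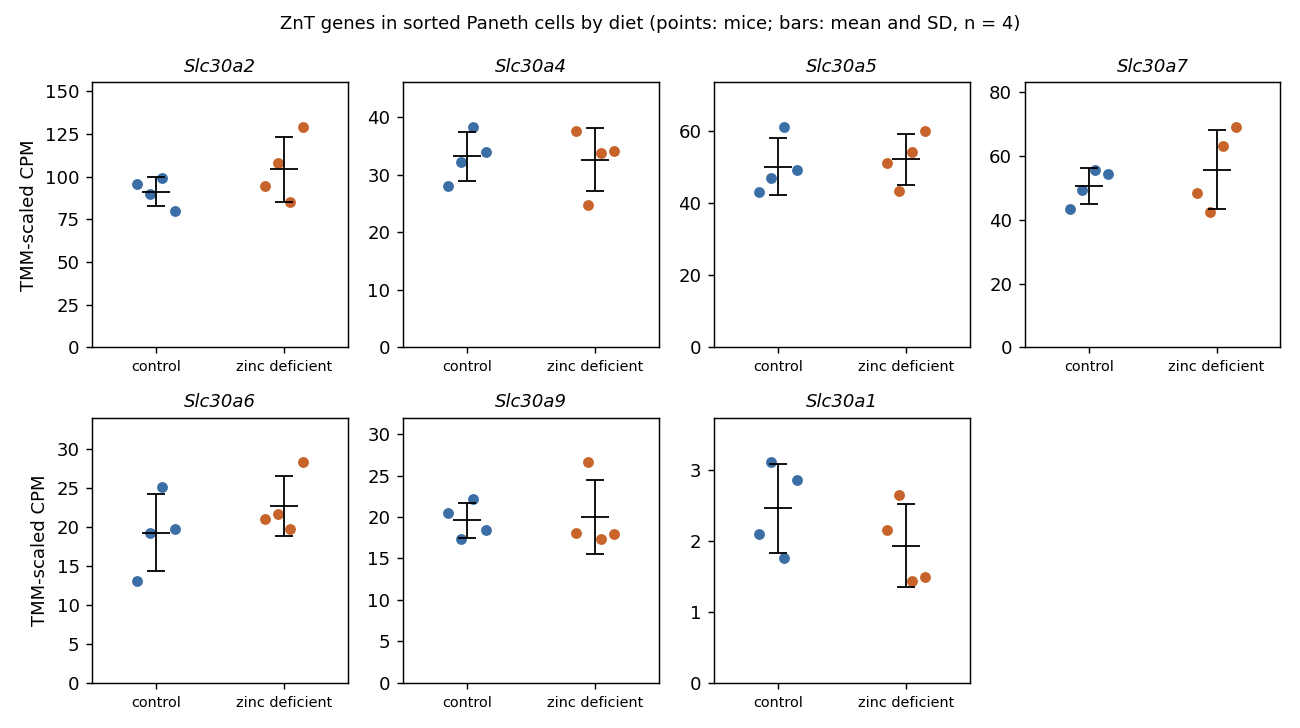
TMM-scaled CPM (y axes, from 0) of the 7 tested ZnT genes in control (blue) and zinc deficient (orange) mice. Points are mice in replicate order from left to right and bars are mean and SD (n = 4), and for every gene the points of the diets overlap.

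The vesicular and granule transporters are ZnT2, ZnT3, ZnT4 and ZnT8. Slc30a2 (ENSMUSG00000028836, GRCm39 chr4:134070234-134081795, plus strand) was scaled by TMM to 96.1, 89.9, 99.1 and 80.0 CPM in control replicates 1 to 4, and to 94.7, 108, 85.5 and 129 CPM in zinc deficient replicates 1 to 4. The highest value was in zinc deficient replicate 4 and the lowest in control replicate 4, with the others mixed. The means were 91.3 ± 8.40 and 104 ± 19.1 CPM (SD, n = 4 each), a log2 fold change of 0.19 ± 0.15 (SE) with an interval of 0.916- to 1.43-fold (edgeR, Benjamini-Hochberg adjusted p = 0.722). Scaled by total counts alone the direction turned, with 151, 104, 91.8 and 75.8 CPM in control and 88.5, 77.6, 93.5 and 109 CPM in zinc deficient mice and a log2 fold change of -0.20 (edgeR adjusted p = 0.597). The median of all genes shifted by -0.36 under that scaling, and relative to it Slc30a2 stayed on the higher side.

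Slc30a4 (ENSMUSG00000005802, chr2:122523004-122544845, minus strand), known for zinc transport into vesicles and milk, had 28.0, 32.2, 38.3 and 34.0 TMM-scaled CPM in control and 37.5, 24.8, 33.7 and 34.1 CPM in zinc deficient mice. The groups overlapped, with the lowest value in zinc deficient replicate 2, and the log2 fold change was -0.02 ± 0.16 (SE, edgeR adjusted p = 0.979), with a direction that turned when single mice were left out. Slc30a3 (chr5:31241914-31265581), which loads synaptic vesicles with zinc in neurons, had 2 counts in all, both in control replicate 1. Slc30a8 (chr15:52158949-52199194), which loads the insulin granules of beta cells, had 0 counts in the 8 mice, which allows up to 0.0349 CPM over their 85938593 counts, a limit for counting error only. Neither passed the filter, so neither was tested.

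The early secretory transporters ZnT5, ZnT6 and ZnT7 were expressed in every mouse. Slc30a5 (ENSMUSG00000021629, chr13:100936795-100970006, minus strand) had 43.0 to 61.3 TMM-scaled CPM in control and 43.3 to 60.1 CPM in zinc deficient mice, nearly the same range, with means of 50.1 ± 7.87 and 52.2 ± 7.01 CPM (SD, n = 4 each) and a log2 fold change of 0.06 ± 0.15 (SE, edgeR adjusted p = 0.930). Its direction turned without control replicate 1 (-0.0084), without zinc deficient replicate 4 (-0.011) and with total counts alone (-0.25, where the median of all genes was at -0.36). Slc30a6 (ENSMUSG00000024069, chr17:74702579-74733299, plus strand) was at 13.1, 19.3, 25.1 and 19.7 CPM in control and at 21.0, 21.6, 19.7 and 28.3 CPM in zinc deficient mice. Its lowest value was control replicate 1 and its highest zinc deficient replicate 4, and the log2 fold change of 0.24 ± 0.19 (SE, edgeR adjusted p = 0.718) fell to 0.09 without control replicate 1. Slc30a7 (ENSMUSG00000054414, chr3:115732621-115801060, minus strand) was at 43.4, 49.3, 55.6 and 54.5 CPM in control and at 48.3, 42.4, 63.2 and 69.3 CPM in zinc deficient mice. Zinc deficient replicates 3 and 4 lay above all controls and replicate 2 below them, for a log2 fold change of 0.14 ± 0.16 (SE, edgeR adjusted p = 0.817).

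ZnT5 and ZnT6 act as a heterodimer, so the log2 ratio of Slc30a5 to Slc30a6 was compared as well, in which a library's scaling factor cancels apart from the 0.1 TPM added. The ratio, of TPM + 0.1, was 1.71, 1.28, 1.28 and 1.31 in control replicates 1 to 4 and 1.27, 1.06, 1.44 and 1.12 in zinc deficient replicates 1 to 4. Slc30a5 was thus above Slc30a6 in all 8 mice with summed exons, and 3 of the 4 controls lay close together with replicate 1 above them. The log2 ratio averaged 0.468 ± 0.204 in control and 0.276 ± 0.200 in zinc deficient mice (SD, n = 4 each), which differed by -0.19 (exact permutation p = 0.20, two-sided, over 70 assignments that can reach 0.0286). Single mice decided its size, since without control replicate 1 the difference was -0.09 (exact permutation p = 0.429) and without zinc deficient replicate 3 it was -0.27 (exact permutation p = 0.0286). That last p is the smallest that the remaining mice can give.

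Slc30a9 (ENSMUSG00000029221, chr5:67464285-67515805, plus strand), whose product is a mitochondrial zinc exporter, had 20.4, 17.4, 22.2 and 18.4 TMM-scaled CPM in control and 18.0, 26.6, 17.4 and 18.0 CPM in zinc deficient mice. Apart from zinc deficient replicate 2, all zinc deficient values lay inside the control range. The log2 fold change was 0.03 ± 0.17 (SE, edgeR adjusted p = 0.978) and became -0.14 without that mouse.

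Slc30a1 (ENSMUSG00000037434, chr1:191638808-191645361, plus strand) encodes the plasma membrane exporter ZnT1 and is a textbook target of MTF-1, the zinc-sensing transcription factor. It was the scarcest tested member, with 39, 38, 14 and 27 counts in control replicates 1 to 4 and 20, 21, 18 and 16 counts in zinc deficient replicates 1 to 4. After TMM scaling these were 2.10, 3.11, 1.76 and 2.86 CPM and 2.16, 2.65, 1.44 and 1.50 CPM, so the lowest zinc deficient values lay under all controls while the highest lay among them. The log2 fold change was -0.37 ± 0.37 (SE) with an interval of 0.453- to 1.32-fold (edgeR, Benjamini-Hochberg adjusted p = 0.789), a wide range that no change lies within, as its few counts leave. It kept its direction in all 15 alternative fits, from -0.74 to -0.22, none with an unadjusted p under 0.05. The -0.74 came from total counts alone, where the median of all genes was at -0.36. Slc30a10 (chr1:185186973-185200959), a manganese exporter of the same family, had 3 counts in control replicate 1 and 1 in zinc deficient replicate 3 and was not tested.

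MTF-1 binds metal response elements, whose core was searched as TGCACNC and TGCGCNC on both strands from 250 bases before to 50 bases after the start of the canonical transcript (GENCODE M39, GRCm39). At least 1 match was found in 5 of the 10 members, beside 27.4% of 21614 protein-coding promoters. The matches of the expressed members are shown with their surroundings because their levels could be compared between the diets, with the core (or its reverse complement) in capitals and positions counted from the start, where +1 is the first transcribed base.
Slc30a1, core on the sense strand, first base at -235, chr1:191638598-191638624, plus strand: cgcccgccgcTGCACCCggccgcggcc
Slc30a1, core on the antisense strand, first base at +8, chr1:191638840-191638866, plus strand: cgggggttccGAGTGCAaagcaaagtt
Slc30a4, core on the antisense strand, first base at +35, chr2:122544796-122544821, minus strand: cgggggctcaGAGCGCAcaagacctc
Slc30a5, core on the antisense strand, first base at -2, chr13:100969967-100969993, minus strand: gtgtccaccaGCGCGCAggcgcaggat
The windows of Slc30a2, Slc30a6, Slc30a7 and Slc30a9 held no such letters, and those of Slc30a8 and Slc30a10, which were at or near 0 counts, held 3 matches each with overlaps among them. Only these 300 bases around the canonical start were searched, so elements farther away or at other starts of a gene would be missed. The log2 fold changes of the 3 expressed members with a match were -0.37, -0.02 and 0.06. These are matches of letters only, and binding was not measured.

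The other zinc transport and buffering genes, chosen with earlier results of these data known, gave the same count of calls. Of the 14 Slc39a importers 12 were tested and 0 were called, where 0.403% of all genes were, and 4 of the 12 had an unadjusted p under 0.05, 3 higher and 1 lower, against 10.5% of all genes. Of the metallothioneins (zinc-binding proteins), Mtf1 and Tmem163 together, 4 of 6 were tested and 0 were called, with 1 at an unadjusted p under 0.05. Of 11 zinc-dependent enzymes 7 were tested and 0 were called, with 1 at an unadjusted p under 0.05 (Mep1a, a metalloprotease, log2 fold change 0.72 ± 0.29 SE, edgeR adjusted p = 0.370, named after its values were seen). DESeq2 called 0 of the transport and buffering genes. With no expression filter edgeR called 251 of 18839 genes, 1 of them in these lists, the importer Slc39a10 (log2 fold change 0.57, adjusted p = 0.0481, against 0.303 with the filter), whose values overlapped between the diets.

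After TMM scaling, values of the diets did not overlap for 4 of the 16 tested transport and buffering genes, of which 3 were higher and 1 lower in zinc deficient mice, against 2.30% and 3.79% of all genes tested. Slc39a5, a basolateral zinc importer of intestinal epithelium, was at 11.7, 11.1, 16.6 and 12.7 TMM-scaled CPM in control and at 7.55, 8.08, 7.66 and 8.98 CPM in zinc deficient mice, a log2 fold change of -0.68 ± 0.19 (SE, edgeR adjusted p = 0.141). Slc39a8, an importer of zinc and manganese, was at 42.7 to 47.9 CPM in control and 52.2 to 64.6 CPM in zinc deficient mice (log2 fold change 0.36 ± 0.13 SE, edgeR adjusted p = 0.308). Slc39a1, a plasma membrane importer, was at 30.8 to 39.5 and 40.2 to 51.9 CPM (0.31 ± 0.14 SE, edgeR adjusted p = 0.445), and Mtf1 at 6.46 to 8.61 and 8.71 to 11.7 CPM (0.44 ± 0.20 SE, edgeR adjusted p = 0.441). None of the 4 passed the adjusted threshold, and scaled by total counts alone, which shifted the median of all genes by -0.36, the log2 fold changes of Slc39a1 and Slc39a8 were -0.02 and -0.003, still above that median. Mt1 and Mt2, the classical zinc-induced metallothioneins, averaged 13.1 ± 0.426 and 2.06 ± 0.599 CPM in control and 11.1 ± 4.32 and 2.82 ± 1.10 CPM in zinc deficient mice (SD, n = 4 each), with edgeR adjusted p of 0.786 and 0.725. The lower Mt1 mean rested on zinc deficient replicate 4 (5.14 CPM, against 10.6 to 14.5 CPM in the other 3), without which its log2 fold change went from -0.25 to -0.0055.

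**Figure D4:**
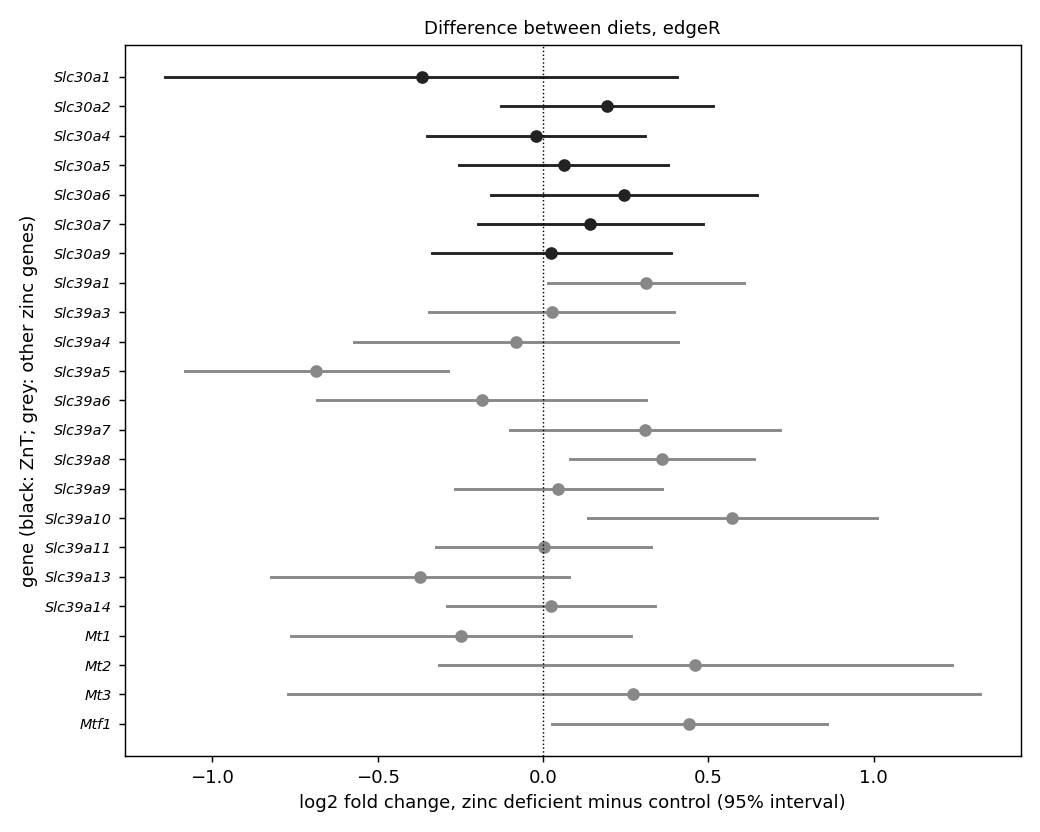
Log2 fold change (zinc deficient minus control, x axis) with its 95% interval from edgeR for the 7 tested ZnT genes (black) and the 16 tested other zinc genes (grey). Each black interval crosses 0, and those of Slc39a1, Slc39a5, Slc39a8, Slc39a10 and Mtf1 do not, before adjustment over all genes.

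Per length, the ZnT genes together came to 41.5 ± 13.6 TPM in control and 33.0 ± 6.80 TPM in zinc deficient mice, and the Slc39a importers to 63.2 ± 17.8 and 48.5 ± 11.6 TPM (SD, n = 4 each). With summed exons the highest importers were Slc39a11 at 16.3 ± 3.94 TPM, Slc39a1 at 7.89 ± 1.67 TPM and Slc39a9 at 5.78 ± 1.61 TPM (SD, n = 8), whereas with the longest transcript Slc39a8 (10.4 TPM) and Slc39a9 (9.65 TPM) lay above Slc39a1 (9.40 TPM). Slc30a2 alone, at 21.4 TPM, thus had a higher mean than any importer with summed exons, whereas with the longest transcript Slc30a2 and Slc39a11 both averaged 21.8 TPM. By role, the ZnT genes of vesicles and granules summed to 29.2 ± 11.0 and 23.0 ± 4.35 TPM, those of the early secretory pathway to 10.6 ± 2.10 and 8.79 ± 2.55 TPM, Slc30a9 to 1.25 ± 0.490 and 0.887 ± 0.103 TPM, and those of the plasma membrane to 0.437 ± 0.165 and 0.238 ± 0.0442 TPM. TPM is not corrected for the alpha-defensin genes, which took 35.7 to 46.4% of counts in control and 42.0 to 50.9% in zinc deficient mice. Like scaling by total counts alone, which shifted the median of all genes by -0.36, TPM uses no TMM factor. The highest ZnT sum, 60.9 TPM, was that of control replicate 1. In the TMM-scaled fit 5 of the 7 tested ZnT genes were above 0, so the direction of these sums depends on the scaling. The part of the defensin share in these sums was not tested.

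Variation among mice was compared with that of all genes. The biological coefficient of variation had a median of 0.171 over the 7 tested ZnT genes, beside 0.204 over all genes tested, and was largest for Slc30a1, above 80.6% of genes. Across the 8 mice, and as a description only, the genes most similar to Slc30a2 on the log2(TMM-scaled CPM + 1) scale were Vcf2 (Pearson r = 0.947, Spearman rho = 0.881), Fzd9 (0.942 and 0.857) and Dus1l (0.941 and 0.810), and those most similar to Slc30a1 were Acot1 (0.924 and 0.905), Exo5 (0.915 and 0.881) and Mxra7 (0.914 and 0.905). These are the top 3 of 10910 genes searched for each, and the values share their libraries and scaling.

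Exons of several members overlap genes on the opposite strand, which matters for the counts because the strand setting of the counting was not stated, although the library kit keeps strand. Slc30a2 shares 1551 exon bases with Extl1, which had 717 counts in the 8 mice beside 8609 for Slc30a2. Slc30a6 shares 867 bases with Nlrc4, which had 4165 counts beside 1779 for Slc30a6. Slc30a7 shares 2316 bases with Dph5 (341 counts) and 116 with Extl2 (481 counts), beside its own 4679 counts. The part of these neighbours in the values of Slc30a2, Slc30a6 and Slc30a7 was not tested.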

How the data were processed

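Whole-number gene counts of 8 libraries were used as deposited by the authors. Per the labels, poly(A) RNA of sorted cells was prepared with a stranded kit. The submitters' processing notes name FastQC 0.12.0, STAR 2.7.0a and DESeq2 with mm39, and the counting program and its strand setting were not given in the sources used here. Identifiers were paired with GENCODE M39 on GRCm39, the same assembly, and 54749 of 55414 matched (665 did not). Libraries held 8557690 to 12648005 counts, where 3 counts equal 0.237 to 0.351 CPM in a single mouse.

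Counts were filtered with filterByExpr, scaled by TMM and tested in R 4.3.3 with edgeR 4.0.16 (robust quasi-likelihood test, all 8 mice, no covariates, Benjamini-Hochberg over 10911 genes, threshold 0.05). DESeq2 1.42.0 (Wald test) was an alternative, as were other scalings, no filter, a fit that was not robust, the replicate block and each mouse left out. TPM was computed from counts and exon length, with 0.1 added before logs (1 as an alternative). Exact permutation tests used full enumeration of the sign flips or assignments. No libraries agreed within sampling noise (chi-square per degree of freedom 5.43 to 55.1 within diets).

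All 10 members are named, and other zinc genes where they were called or did not overlap, with Mt1, Mt2, Mtf1 and the highest 3 importers in any case. The members and lists were chosen with earlier results of these data known. Replicate numbers were also compared between diets for signs of pairing.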

Additional observations from a re-analysis of the deposited data

Results flagged for a closer look

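A single mouse stood far from the other 3 of its diet in 4 of 28 groups examined by Dixon's test at the 95% level, where chance alone gives about 1 in 20 groups. In zinc deficient replicate 2, Slc30a9 was at 26.6 TMM-scaled CPM, against 17.4 to 18.0 in the other zinc deficient mice, and this was also the library with the lowest scaling factor, 0.719. Mt2 was at 4.47 CPM in zinc deficient replicate 3, against 2.15 to 2.40 in the others of that diet. Mtf1 was at 8.61 CPM in control replicate 2, against 6.46 to 6.81 in the other controls. The log2 ratio of Slc30a5 to Slc30a6 was 0.773 in control replicate 1, against 0.354 to 0.389 in the other controls. The part of the scaling in the Slc30a9 value was not tested.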

How the results depend on the processing

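Across 15 alternative fits, 0 of the 105 values for the 7 tested ZnT genes had an adjusted or an unadjusted p under 0.05. The smallest adjusted p from these fits was 0.381. The direction was the same in 92 of these values and turned in 13. The fits share most of their mice, so the values are not independent. Scaling by library size only moved the median of all genes by -0.36. Its log2 fold changes were -0.74 for Slc30a1, -0.20 for Slc30a2, -0.33 for Slc30a4 and -0.25 for Slc30a5. They were -0.071 for Slc30a6, -0.17 for Slc30a7 and -0.36 for Slc30a9. For Slc39a1, Slc39a8 and Mtf1 they were -0.025, -0.0032 and 0.088. DESeq2 gave 0.0012 for Slc30a4. With each mouse left out in turn, Slc30a4 ranged from -0.10 to 0.089, Slc30a5 from -0.011 to 0.17 and Slc30a9 from -0.14 to 0.092, turning direction, whereas Slc30a1 (-0.54 to -0.22), Slc30a2 (0.07 to 0.28), Slc30a6 (0.09 to 0.40) and Slc30a7 (0.03 to 0.25) kept theirs. Without control replicate 1, Slc30a2 was at 0.22 and Slc30a6 at 0.09.

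Over all genes, 44 were called, against 37 with DESeq2 size factors in edgeR, 11 with library size only, 35 with Defa genes left out of the scaling, 251 with no expression filter, 134 with DESeq2, 25 without the robust option and 53 with the replicate block. Leaving out a mouse gave 8 to 36 calls, the fewest, 8, when control replicate 2 or 4 was out, and 13, 26 and 17 when zinc deficient replicate 2, 1 or 4 was. The balance of calls also turned, from 16 higher and 28 lower to 14 and 11 without the robust option, 27 and 9 without zinc deficient replicate 3, and 12 and 5 without replicate 4. The cause was not tested. Of the other zinc transport and buffering genes, 1 was called with no expression filter and 0 in the main analysis and each other alternative. Correlations of same-numbered libraries were low, at 0.114, 0.0925, 0.00489 and 0.0926, and the numbers were not taken to pair the mice. Controls 1, 2 and 4 nevertheless correlated best with the zinc deficient library of their own number, and control 3 with replicate 4. Pairing is thus not excluded, and the block changed no call among the zinc genes.

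The order of Slc30a4 over Slc30a5 turned with the longest transcript (-0.67) and with CPM without length (-0.64). With CPM without length, Slc30a5 over Slc30a7 was -0.050, Slc30a7 over Slc30a6 was 1.35 and Slc30a6 over Slc30a9 was 0.07 (exact p = 0.609). Slc30a7 over Slc30a6 ranged from -0.026 to 0.077 with a mouse left out, turning when control replicate 1 or zinc deficient replicate 3 was out. The log2 difference in the Slc30a5 to Slc30a6 ratio ranged from -0.27 to -0.090 with a mouse left out. The exact permutation p of 0.0286, the smallest possible with a mouse left out, was reached only without zinc deficient replicate 3. Slc30a3, Slc30a8 and Slc30a10 had too few counts to be tested, and Slc30a1 rested on 14 to 39 counts per mouse.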
